A study of Mus musculus with 12 samples.

Results

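The genes described here are 10 transcription factors that mark limb and mesenchyme position in the mouse embryo: Pitx1, Tbx2, Tbx3, Tbx4, Tbx5, Tbx15, Prrx1, Prrx2, Twist1 and Meis1. They were chosen by name, 10 of the 54532 genes listed, and each name matched 1 row. Their RNA was measured by RNA-seq of poly(A) RNA in mouse embryonic fibroblasts (MEFs), mixed mesenchymal cells grown out of the embryo, in 4 groups of 3 libraries. The groups were wild-type (WT) MEFs without treatment, WT MEFs after heat shock, CHIP-KO MEFs without treatment and CHIP-KO MEFs after heat shock, where heat shock was 1 h at 43 °C. CHIP, encoded by Stub1, is a ubiquitin ligase that works with heat shock chaperones, and the design asks how its loss and heat change gene expression. The labels give neither the age or body region of the embryos, nor how the knockout was made, nor whether replicates were separate cultures. The p-values therefore measure the spread between these libraries, which may be technical, and genotype cannot be told apart from a difference in the embryos or lines behind the 2 genotypes.

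In the embryo these factors give mesenchymal cells a position. Tbx5 is needed for the forelimb to form, whereas Tbx4 and Pitx1 mark the hindlimb, and both T-box factors act upstream of the outgrowth signal Fgf10. Tbx2 and Tbx3 are T-box repressors of the limb margins and of many other tissues, Tbx15 shapes the skeleton and the skin of the trunk, and Meis1 marks the proximal limb. Prrx1, Prrx2 and the basic helix-loop-helix factor Twist1 are found across limb and craniofacial mesenchyme, with no preference for the forelimb or the hindlimb. Cultured fibroblasts are known to keep part of the positional program of the place they came from.

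The genotype and heat labels were checked first. Stub1 stood at 53.8 to 64.1 FPKM (fragments counted for a gene, divided by its length and by the library's total) in the 6 WT libraries and at 0.722 to 1.17 in the 6 CHIP-KO libraries. Hspa1a, a heat-induced chaperone gene, stood at 1.78 to 3.55 FPKM in unheated and at 927 to 1890 in heated libraries. The libraries held 15591924 to 26954112 fragments, and both WT replicates 1 stood apart from the other WT libraries (limma weights of 0.192 unheated and 0.165 heated). Heated CHIP-KO replicate 1 had a weight of 0.439. Its fragments differed from those of replicates 2 and 3 by a chi-square per degree of freedom of 10.4 and 16.6. Between replicates 2 and 3 it was 3.40. The summed level of 10 fibroblast markers was 1459 to 1868 FPKM in WT, 1875 to 2210 in heated WT, 2922 to 3084 in unheated and 3271 to 3474 in heated CHIP-KO libraries. Col1a1, Col1a2 and Vim made up most of this sum, and its members differed in direction: in unheated CHIP-KO 7 of the 9 tested markers were called higher, whereas Vim and S100a4 were called lower. Thy1 (mean 0.0052 FPKM), Dcn (0.015) and Lum (0) were at or near 0 in unheated WT, where Pdgfra stood at 1.001. Thy1 (0.026) and Dcn (0.088) were near 0 in heated WT too, and Lum was at or below 0.176 FPKM in every library. Sums of 6 epithelial, 5 endothelial and 4 pluripotent or germ cell markers stayed at or below 1.195 FPKM in every library, and the muscle regulators Myod1, Myog and Myf5 were at 0 in all 12. Other marker sums moved with heat: 6 mesothelial markers summed to 42.1 to 46.3 FPKM in WT, 8.82 to 10.3 in heated WT, 36.6 to 41.5 in unheated and 51.0 to 52.0 in heated CHIP-KO, with Lrrn4, Wt1 and Gpm6a at 0 in all. In the same order, 7 cartilage and bone markers summed to 5.13 to 6.52, 32.9 to 42.6, 15.4 to 15.9 and 32.5 to 49.4 FPKM, and 5 leukocyte markers to 2.001 to 3.41, 13.4 to 15.8, 3.94 to 4.61 and 8.55 to 10.8. Sox9 carried most of the cartilage and bone sum, with Ibsp at 0 in all libraries, and Cd68 most of the leukocyte sum (means of 2.41, 13.4, 3.72 and 8.85 FPKM), with Adgre1 at 0 in all and Ptprc at no more than 0.0104. The 5 muscle markers summed to at most 2.13 FPKM and the 5 neural crest and glia markers to 2.11 to 4.07 over all libraries. The part that these marker differences have in the results below was not tested, and in bulk RNA fewer cells of a type cannot be told apart from less RNA per cell.

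**Figure D1:**
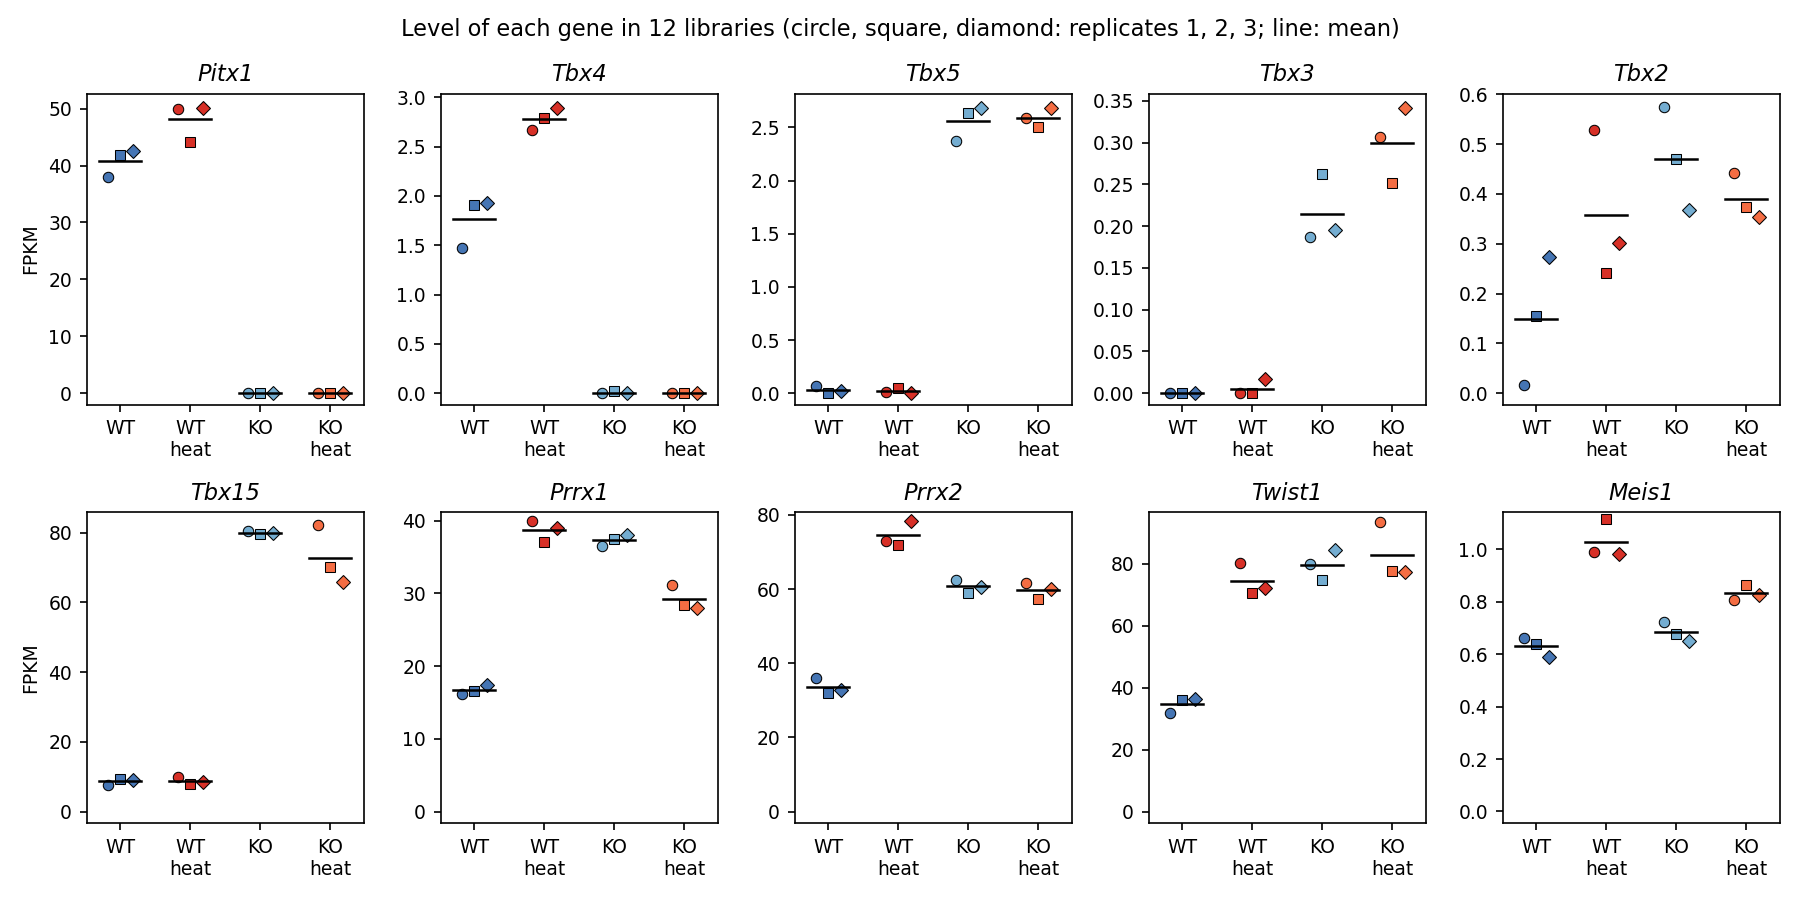
FPKM (linear axis, a separate scale for each gene) of the 10 genes in 12 libraries, by group; symbols are single libraries and the line is the group mean. Pitx1 and Tbx4 are at or near 0 in CHIP-KO, Tbx5 and Tbx3 are at or near 0 in WT, and Prrx1, Prrx2 and Twist1 are lowest in unheated WT.

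The hindlimb factors were present in WT and not detected, or at 2 fragments, in CHIP-KO cells, and the forelimb factor Tbx5 showed the opposite pattern. Pitx1, a paired-type homeobox factor (chromosome 13, 55825051 to 55836192, minus strand, GRCm38), stood at 38.1, 41.8 and 42.6 FPKM in the unheated WT libraries and at 50.002, 44.1 and 50.1 in the heated ones. No Pitx1 fragment was found in any of the 6 CHIP-KO libraries, among 141450864 fragments in all. In unheated WT cells it was the highest of the 10 genes. Against a floor of 3 fragments per library, which covers counting error only, WT exceeded CHIP-KO at least 902-fold without heat and at least 910-fold after heat. Tests used log2(FPKM + 1), a scale on which changes of low genes come out too small. There the difference between CHIP-KO and WT was -5.38 ± 0.06 (SE, n = 3 per group) without heat (limma adjusted p = 3.14e-13) and -5.61 ± 0.06 after heat (limma adjusted p = 2.98e-13).

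Tbx4 (chromosome 11, 85886422 to 85916097, plus strand) was far lower than Pitx1 but had the same pattern. Its level was 1.47, 1.91 and 1.92 FPKM in unheated WT and 2.67, 2.79 and 2.89 in heated WT. In CHIP-KO it was 0 in 5 of 6 libraries and 0.0218 FPKM in the other, 2 fragments in all against 863 in the WT libraries. Without heat the ratio of WT to CHIP-KO was 229 from fragments pooled over libraries and scaled for depth (95% counting interval 63.0 to 1901). After heat it was at least 67.4-fold, from the mean FPKM against the floor. Both differences passed the threshold, at -1.45 ± 0.09 log2 units without heat (limma adjusted p = 1.84e-07) and -1.92 ± 0.09 after heat (limma adjusted p = 2.90e-08).

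Tbx5 (chromosome 5, 119832668 to 119885219, plus strand) stood at 0.0679, 0 and 0.0201 FPKM in unheated WT and at 0.0111, 0.0498 and 0 in heated WT, 12 fragments in all. In CHIP-KO it stood at 2.37, 2.64 and 2.68 FPKM without heat and at 2.59, 2.50 and 2.68 after heat, 1690 fragments in all. All 6 CHIP-KO libraries lay above all 6 WT libraries, and the differences with heat did not pass the threshold (-0.01 ± 0.08 log2 units in WT and 0.01 ± 0.08 in CHIP-KO). From pooled fragments CHIP-KO exceeded WT 96.8-fold without heat (95% counting interval 46.8 to 241.5) and 133-fold after heat (56.7 to 410). The ratios of mean FPKM were 87.4 and 127.8. The log2 differences were 1.79 ± 0.08 (limma adjusted p = 1.16e-08) and 1.82 ± 0.08 (limma adjusted p = 1.73e-08).

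Tbx3 and Tbx2 lie beside Tbx5 and Tbx4: 147.9 kb separate Tbx3 from Tbx5 on chromosome 5, and 44.5 kb separate Tbx2 from Tbx4 on chromosome 11. Neither reached the level required for the main test, 1 FPKM or more in 3 or more libraries. Tbx3 (119670669 to 119684724, plus strand) was at 0 in 5 of 6 WT libraries and at 0.0165 FPKM in heated replicate 3, whereas CHIP-KO libraries held 0.187, 0.263 and 0.195 FPKM without heat and 0.307, 0.251 and 0.342 after heat. All 6 CHIP-KO libraries thus lay above all 6 WT libraries, as for Tbx5. CHIP-KO exceeded WT at least 8.81-fold without heat and, from pooled fragments, 54.7-fold after heat (95% counting interval 14.8 to 457).

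Tbx2 (85832551 to 85841948, plus strand) was low everywhere and spread widely in unheated WT, at 0.0175, 0.155 and 0.273 FPKM. It stood at 0.529, 0.241 and 0.302 FPKM in heated WT, at 0.574, 0.470 and 0.368 in unheated and at 0.443, 0.373 and 0.353 in heated CHIP-KO. The unheated genotypes did not overlap and the heated ones did. In a fit of 29109 genes without the level filter, Tbx3 was higher in CHIP-KO without heat (limma adjusted p = 1.04e-04) and after heat (limma adjusted p = 1.95e-05), and Tbx2 was higher without heat (limma adjusted p = 0.0247) but not after heat (limma adjusted p = 0.850). In that fit 22.6% of all genes were called in either direction without heat and 21.3% after heat.

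Tbx15 had the largest absolute difference in level between the genotypes among the genes present in both. Tbx15 (chromosome 3, 99240381 to 99354259, plus strand) stood at 7.77, 9.23 and 8.999 FPKM in unheated WT and at 9.998, 8.01 and 8.57 in heated WT. CHIP-KO libraries held 80.5, 79.6 and 80.0 FPKM without heat and 82.2, 70.2 and 66.0 after heat. CHIP-KO exceeded WT 9.23-fold without heat and 8.22-fold after heat, or by 3.07 ± 0.09 (limma adjusted p = 5.80e-10) and 2.90 ± 0.09 log2 units (limma adjusted p = 1.99e-09). The difference with heat passed in neither genotype, at 0.03 ± 0.09 log2 units in WT (limma adjusted p = 0.828) and -0.14 ± 0.09 in CHIP-KO (limma adjusted p = 0.329). The latter was called lower with library weights (-0.18, limma adjusted p = 0.00833) and with equal sums (-0.48, limma adjusted p = 0.00353).

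Prrx1, Prrx2 and Twist1 shared another pattern: each was lowest in unheated WT and 1.81- to 2.30-fold higher in unheated CHIP-KO, and each rose 2.14- to 2.32-fold with heat in WT, with no such rise in CHIP-KO. Prrx1 (chromosome 1, 163245119 to 163313710, minus strand), a homeobox factor of limb and skeletal mesenchyme, stood at 16.1, 16.5 and 17.4 FPKM in WT, 40.0, 37.0 and 39.0 in heated WT, 36.6, 37.5 and 38.1 in unheated and 31.1, 28.4 and 28.0 in heated CHIP-KO. Unheated WT lay below the other 3 groups, and heated CHIP-KO lay between it and the rest. Its relative Prrx2 (chromosome 2, 30834972 to 30881251, plus strand) stood at 35.9, 32.0 and 32.9 FPKM in WT, 73.0, 71.9 and 78.5 in heated WT, 62.5, 59.0 and 60.6 in unheated and 61.7, 57.2 and 60.0 in heated CHIP-KO. Heated WT was the highest group, and the heated and unheated CHIP-KO libraries overlapped. Twist1 (chromosome 12, 33957671 to 33959829, plus strand), a regulator of mesenchymal identity and migration, stood at 31.8, 35.9 and 36.2 FPKM in WT, 80.2, 70.5 and 72.1 in heated WT, 79.9, 74.6 and 84.3 in unheated and 93.5, 77.6 and 77.2 in heated CHIP-KO. Only unheated WT stood apart from the other Twist1 groups.

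For these genes heat in WT gave ratios of 2.32 for Prrx1, 2.21 for Prrx2 and 2.14 for Twist1. The log2 differences were 1.17 ± 0.05 (Prrx1, limma adjusted p = 3.49e-08), 1.13 ± 0.06 (Prrx2, limma adjusted p = 7.48e-08) and 1.08 ± 0.09 (Twist1, limma adjusted p = 2.15e-06). In CHIP-KO, Prrx1 fell with heat, by 0.35 ± 0.05 log2 units (limma adjusted p = 0.00136). The heat differences in CHIP-KO were -0.03 ± 0.06 log2 units for Prrx2 (limma adjusted p = 0.794) and 0.05 ± 0.09 for Twist1 (limma adjusted p = 0.729). Scaled to an equal sum per library, which put the median of all genes at -0.29 for heat in CHIP-KO, Prrx2 (-0.36), Twist1 (-0.28), Tbx15 (-0.48) and Tbx5 (-0.23) were called lower as well.

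With heat these genes rose in WT, Prrx1 also fell in CHIP-KO, and the genotype difference changed. Without heat CHIP-KO exceeded WT by 1.12 ± 0.05 log2 units for Prrx1 (limma adjusted p = 2.24e-08), 0.84 ± 0.06 for Prrx2 (limma adjusted p = 4.51e-07) and 1.18 ± 0.09 for Twist1 (limma adjusted p = 9.29e-07). After heat CHIP-KO was below WT for Prrx1, by -0.40 ± 0.05 (limma adjusted p = 1.35e-04), and for Prrx2, by -0.32 ± 0.06 (limma adjusted p = 0.00108), and did not pass for Twist1 (0.15 ± 0.09, limma adjusted p = 0.195), which with library weights was called higher (0.12, limma adjusted p = 0.0459). The interaction of genotype and heat, the heat difference in CHIP-KO minus that in WT, was -1.51 ± 0.08 log2 units for Prrx1 (limma adjusted p = 4.37e-07), -1.15 ± 0.08 for Prrx2 (limma adjusted p = 2.71e-06) and -1.03 ± 0.12 for Twist1 (limma adjusted p = 1.07e-04). Each of these genes kept its side of the threshold in the heat in WT, genotype without heat and interaction comparisons under every alternative that was run.

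**Figure D2:**
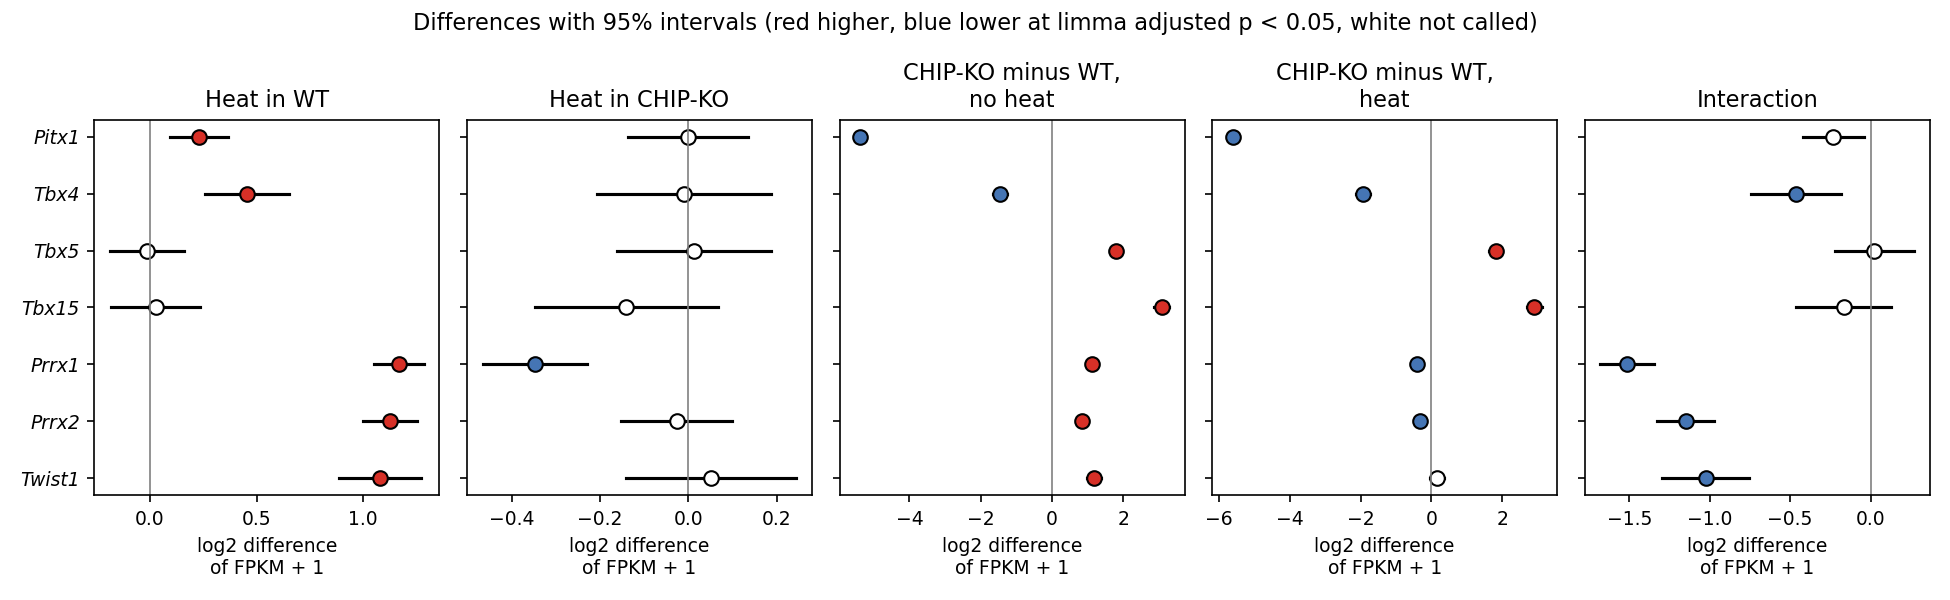
Differences in log2(FPKM + 1) with 95% intervals for the 7 tested genes in 5 comparisons, each with its own horizontal scale; red and blue points passed the limma adjusted p of 0.05. Prrx1, Prrx2 and Twist1 have interactions of -1.51, -1.15 and -1.03, and their intervals do not reach 0.

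The RefSeq promoter table (GRCm38.p6) held an entry for 5 of the 10 genes, Tbx4, Prrx1, Prrx2, Twist1 and Meis1. The 250 bases before the start are shown for the genes that rose together in heated WT, and for Tbx4, which is nearly silent in CHIP-KO, so that their sequence can be set beside their levels. They lie at chr1:163313651-163313900 (minus strand, Prrx1), chr2:30845117-30845366 (plus strand, Prrx2), chr12:33957421-33957670 (plus strand, Twist1) and chr11:85896515-85896764 (plus strand, Tbx4). For Prrx1, Prrx2 and Tbx4 the RefSeq start lies inside the gene's annotated span, so that part or all of the window lies within the gene, and other starts exist. Sequences run 5′ to 3′, and capitals mark matches, on either strand, to the motifs searched.
Prrx1: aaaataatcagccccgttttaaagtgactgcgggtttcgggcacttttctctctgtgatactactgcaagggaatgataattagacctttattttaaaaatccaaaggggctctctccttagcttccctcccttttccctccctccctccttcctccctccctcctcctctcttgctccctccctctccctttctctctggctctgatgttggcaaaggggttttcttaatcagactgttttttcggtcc
Prrx2: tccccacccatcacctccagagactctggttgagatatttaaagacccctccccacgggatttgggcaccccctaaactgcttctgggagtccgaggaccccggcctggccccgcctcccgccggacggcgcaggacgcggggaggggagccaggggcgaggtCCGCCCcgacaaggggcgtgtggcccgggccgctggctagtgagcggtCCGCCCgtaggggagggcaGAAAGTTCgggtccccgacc
Twist1: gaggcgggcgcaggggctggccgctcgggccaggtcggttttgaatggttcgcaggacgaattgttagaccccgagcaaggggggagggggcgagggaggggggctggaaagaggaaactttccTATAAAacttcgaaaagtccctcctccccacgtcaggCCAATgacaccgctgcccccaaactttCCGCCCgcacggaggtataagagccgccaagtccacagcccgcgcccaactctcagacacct
Tbx4: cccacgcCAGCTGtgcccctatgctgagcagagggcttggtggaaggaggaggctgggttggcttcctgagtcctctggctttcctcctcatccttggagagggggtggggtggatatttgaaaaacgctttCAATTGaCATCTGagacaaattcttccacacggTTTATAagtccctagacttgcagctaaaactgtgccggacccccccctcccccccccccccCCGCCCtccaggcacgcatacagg
The motifs searched were the inverted pairs of heat shock element units (GAANNTTC and TTCNNGAA), the cyclic AMP response element (TGACGTCA) and the AP-1 site (TGANTCA). The others were the E-box (CANNTG, which Twist1 itself binds), the GC box (GGGCGG), the CCAAT box (CCAAT) and the TATA box (TATAAA). Prrx1 held none of them in this window. Prrx2 held 1 heat shock pair of the form GAANNTTC 20 bases before the start, and 2 GC boxes. Twist1 held 1 GC box, 1 CCAAT box and 1 TATA match, and no heat shock pair. Tbx4 held 3 E-boxes, 1 GC box and 1 TATA match. Among 32851 promoters of this length, 6.69% held GAANNTTC, 7.17% TTCNNGAA, 1.55% TGACGTCA, 6.75% TGANTCA, 66.2% an E-box, 32.7% a GC box, 33.8% a CCAAT box and 12.4% TATAAA. A GC box was thus found for Prrx2 and Twist1 and not for Prrx1, and a match or its absence describes the letters only.

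Heat also raised Pitx1 and Tbx4 in WT, by less. Pitx1 rose 1.18-fold, by 0.23 ± 0.06 log2 units (limma adjusted p = 0.00747), with no overlap between the heated and unheated WT libraries. The call ended without both WT replicates 1 (0.15 log2 units, limma adjusted p = 0.0712), and the difference was -0.0017 with libraries scaled to an equal sum. Tbx4 rose 1.57-fold, by 0.45 ± 0.09 log2 units (limma adjusted p = 0.00119), a call that ended with a pseudocount of 0.1 (limma adjusted p = 0.0558). Its interaction of -0.46 ± 0.13 (limma adjusted p = 0.0152) restates this rise, since in CHIP-KO the gene was at the floor and could not fall, and the call ended under 4 alternatives (limma adjusted p of 0.0515 to 0.355). The interaction of Pitx1, also at 0 in CHIP-KO, was -0.23 ± 0.09 (limma adjusted p = 0.0611), and it passed with median-of-ratios factors (0.0373), quantile normalization (0.0398) and library weights (0.00267).

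Meis1 (chromosome 11, 18879817 to 19018985, minus strand), a homeobox partner of Pbx proteins, had unheated WT and CHIP-KO libraries that overlapped. Its level was 0.663, 0.640 and 0.590 FPKM in WT, 0.989, 1.12 and 0.981 in heated WT, 0.721, 0.675 and 0.651 in unheated and 0.807, 0.865 and 0.827 in heated CHIP-KO. Heated libraries lay above unheated ones in both genotypes, and heated WT lay above heated CHIP-KO. The mean rose from 0.631 to 1.03 FPKM in WT (limma adjusted p = 0.00372 in the fit without a filter, where 31.8% of genes were called), and the means in CHIP-KO were 0.682 and 0.833 FPKM, which did not pass in that fit (limma adjusted p = 0.313, with 8.62% of genes called). The difference between the heated genotypes did not pass there either (limma adjusted p = 0.149).

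Of the 7 genes that passed the level filter, all 7 were called between the unheated genotypes, 5 higher and 2 lower in CHIP-KO, where 23.9% and 24.5% of the 13023 tested genes were called in these directions. After heat 2 were higher and 4 lower, against 23.3% and 19.1% of all genes. Heat in WT raised 5 and lowered none (28.1% and 30.5% of all genes), and heat in CHIP-KO raised none and lowered 1 (8.65% and 11.4%). The interaction was negative for 4 and positive for none (17.3% and 17.9% of all genes), among them Tbx4, whose call restates its rise in WT, and without a filter 14.6% of all genes were called for it. Pitx1 and Tbx4 passed the filter only through WT and Tbx5 only through CHIP-KO, so these counts are descriptions and not support. Pitx1 and Tbx4, at 0 and 2 fragments in CHIP-KO, could not have been called lower with heat there, and their interactions reflect WT alone. With 3 libraries a group, the smallest exact permutation p for 1 gene is 0.1, which every comparison of groups that do not overlap gave. Scaled to an equal sum per library, the share of all called genes that were higher went from 48.0% to 27.9% for heat in WT, from 43.2% to 6.50% for heat in CHIP-KO, from 54.9% to 43.5% between heated genotypes and from 50.8% to 38.2% for the interaction.

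The order of levels, which FPKM allows because it is per length, differed between the genotypes. In unheated WT it ran from Pitx1 (40.8 ± 2.4 FPKM, SD, n = 3) over Twist1 (34.7 ± 2.5) and Prrx2 (33.6 ± 2.1), whose ranges overlapped, to Prrx1 (16.7 ± 0.6), Tbx15 (8.67 ± 0.78), Tbx4 (1.77 ± 0.26) and Meis1 (0.631 ± 0.037). In unheated CHIP-KO it ran from Tbx15 (80.0 ± 0.5) and Twist1 (79.6 ± 4.8), whose ranges overlapped, over Prrx2 (60.7 ± 1.8), Prrx1 (37.4 ± 0.7) and Tbx5 (2.56 ± 0.17) to Meis1 (0.682 ± 0.036). Tbx2 and Tbx3 came after these, with Tbx5 between them in WT and with Tbx4 and Pitx1 last in CHIP-KO. In heated WT Prrx2 (74.5 ± 3.5) and Twist1 (74.3 ± 5.2) had moved above Pitx1 (48.1 ± 3.4), and their ranges overlapped. In heated CHIP-KO Twist1 (82.8 ± 9.3) and Tbx15 (72.8 ± 8.4) overlapped too, ahead of Prrx2 (59.6 ± 2.3) and Prrx1 (29.2 ± 1.7).

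**Figure D3:**
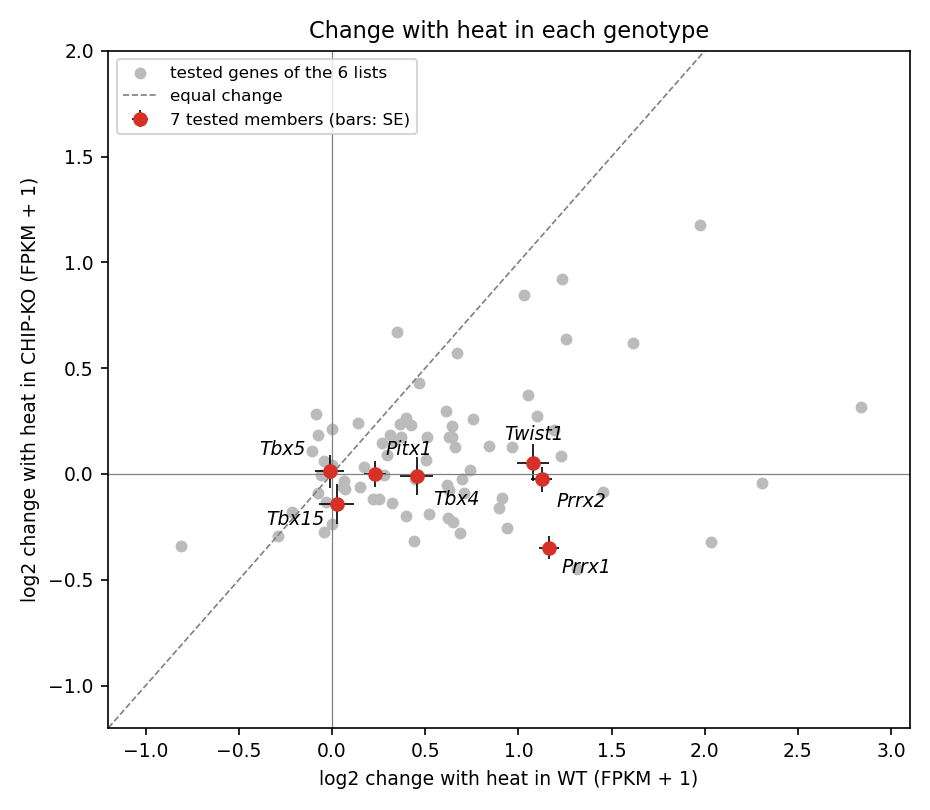
Change of log2(FPKM + 1) with heat in WT (horizontal) and in CHIP-KO (vertical) for the 7 tested genes, with SE bars, and for the 74 tested genes of 6 related lists in grey. Prrx1, Prrx2 and Twist1 lie at 1.17, 1.13 and 1.08 on the WT axis and at -0.35, -0.03 and 0.05 on the CHIP-KO axis, below the line of equal change.

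The surrounding program was read from 6 lists of related genes, of which 74 of 126 listed genes were tested. Between the unheated genotypes 46 were higher and 11 lower in CHIP-KO, with a median log2 difference of 0.46 against -0.012 over all tested genes, of which 23.9% were higher and 24.5% lower. Alx1, Hand2, Irx3, Nr2f1 and Pax9 passed the filter only through CHIP-KO, and all 5 are among the 46. Id4, Pax3 and Bmp2 passed only through WT, and 2 of them are among the 11, so the counts are a description. Of 14 tested limb patterning factors, 10 were higher and none lower, with a median of 0.95. Osr1, a zinc finger factor of early mesoderm, went from 3.97 to 30.9 FPKM (2.69 ± 0.14 log2 units), Lhx9 from 0.432 to 7.52 (2.57 ± 0.10), Hic1 from 0.816 to 7.59 (2.25 ± 0.13) and Emx2 from 1.45 to 5.48 (1.41 ± 0.06). Of 18 tested forkhead and other position factors 12 were higher and 2 lower (median 0.74), with Six2 going from 0.325 to 2.87 FPKM, Foxp1 from 4.90 to 13.7, Pax9 from 0.440 to 2.55 and Foxd1 from 7.33 to 3.002.

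Among 12 tested homeodomain relatives 9 were higher and 2 lower (median 0.46). Alx1, a factor of craniofacial mesenchyme, was at 0 in all WT libraries and at a mean of 2.97 FPKM in CHIP-KO, whereas the TALE factor Pknox2 was lower, at 1.53 against 3.93 FPKM. Meis2 went from 0.876 to 2.17 FPKM and Tgif1 from 5.50 to 9.10. Among 13 tested Twist partners and mesenchymal bHLH or zinc finger factors 8 were higher and 1 lower (median 0.45). Hand2, a Twist1 partner of the posterior limb bud, was at 0 in all WT libraries and at a mean of 4.09 FPKM in CHIP-KO, and the E-protein gene Tcf4 went from 3.71 to 8.445 FPKM, Tcf12 from 8.78 to 13.7 and Snai1 from 17.5 to 26.1. Of 4 tested further T-box genes only Tbx18 was called, at 3.15 against 2.36 FPKM (list median 0.19).

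The limb bud signals moved both ways, with 6 of 13 higher and 6 lower in unheated CHIP-KO and a median of -0.24. The BMP antagonist Grem1 went from 0.959 to 12.04 FPKM (2.73 ± 0.09 log2 units). Fgf10 was lower, at 1.38 against 5.34 FPKM (-1.42 ± 0.08). Bmp2 was lower too, at 0.283 against 2.09 FPKM, and Wnt5a was higher, at 3.23 against 1.49.

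After heat in WT, 51 of the 74 genes rose and 3 fell, with a median of 0.49 against -0.016 over all tested genes, of which 28.1% rose and 30.5% fell. In CHIP-KO 8 rose and 7 fell (median 0.05 against -0.0018), where 8.65% and 11.4% of all genes did. With libraries scaled to an equal sum these counts were 38 and 5 in WT, with a median of 0.34 against -0.21, and 5 and 31 in CHIP-KO, with a median of -0.19 against -0.29. Quantile normalization gave 8 and 9 in CHIP-KO (median -0.013 against -0.028). The interaction was negative for 33 and positive for 1 (median -0.36 against -0.0029), against 17.3% and 17.9% of all genes, and for 33 to 41 and for 0 to 5 genes under the other scalings. Id4 passed the filter only through heated WT and is among the 51 and the 33, so these counts are a description too. By list, negative interactions were found for 7 of 12 homeodomain relatives, 7 of 13 Twist partners, 5 of 14 limb factors, 7 of 18 position factors, 6 of 13 signals and 1 of 4 T-box genes. Osr2 had the most negative one of the limb factors (-2.52 ± 0.19), going from 2.49 to 23.8 FPKM with heat in WT and from 6.37 to 8.22 in CHIP-KO. Rspo2, a Wnt agonist of the limb bud, went from 1.30 to 10.3 FPKM in WT and from 0.940 to 0.887 in CHIP-KO (-2.35 ± 0.12). Among the Twist partners Id1, an inhibitor of bHLH dimers, rose from 69.7 to 181.9 FPKM in WT and had means of 96.8 and 71.9 in CHIP-KO, a difference that did not pass (interaction -1.76 ± 0.35). Snai2, a zinc finger factor often active with Twist1, went from 20.2 to 57.2 FPKM in WT and from 25.5 to 24.3 in CHIP-KO (-1.54 ± 0.19). The positive interaction was that of the receptor gene Met (0.47 ± 0.13), named after its value was seen, which fell from 17.8 to 9.74 FPKM in WT and went from 12.6 to 9.74 in CHIP-KO. After heat 25 of the 74 genes were higher and 28 lower in CHIP-KO (median -0.07 against 0.013), where 23.3% and 19.1% of all genes were.

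**Figure D4:**
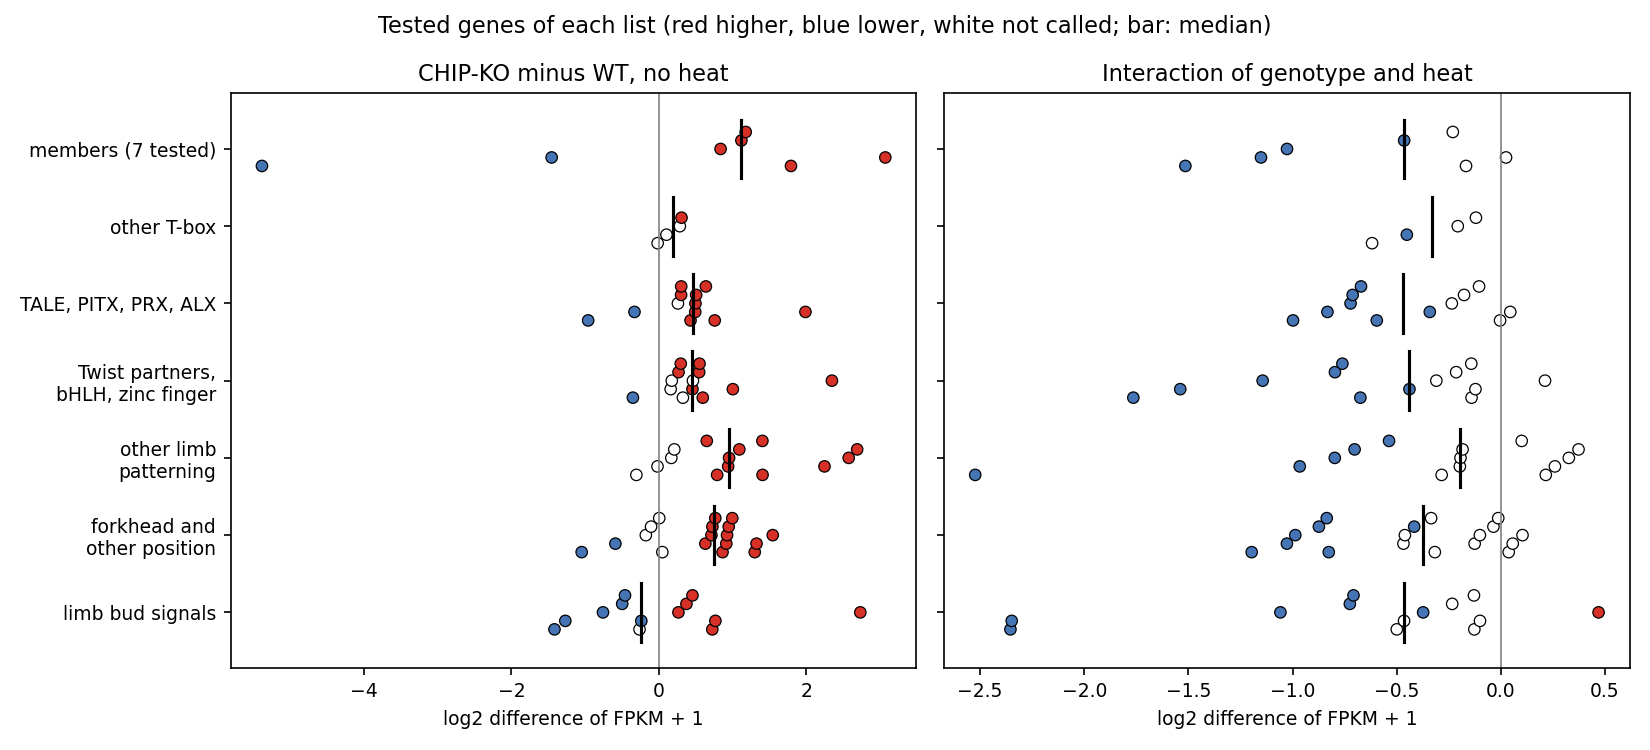
Differences in log2(FPKM + 1) between unheated CHIP-KO and WT (left) and interactions of genotype and heat (right) for the 7 tested genes and 6 lists; each point is a gene, red higher and blue lower at the limma threshold, white not called, and the bar is the median. Of 74 tested list genes 46 are red on the left and 33 are blue on the right.

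The genes whose profile over the 12 libraries was closest to each tested gene were found by the root mean square (RMS) difference of centred log2(FPKM + 1) values. Prrx1 and Prrx2 were the closest pair among the tested genes, at an RMS difference of 0.14, followed by Prrx1 with Twist1 (0.22) and Prrx2 with Twist1 (0.23). Among other protein-coding genes the closest to Prrx1 were Steap3 (0.10), Pdp1 (0.11) and H2-Q6 (0.13), and the closest to Prrx2 were Lamp2 (0.07), Mef2c (0.09) and Trpm4 (0.09). Twist1 was closest to Tnc, which encodes the matrix protein tenascin-C, Adamts4 and Rin2 (0.11 each). Tnc had means of 10.3 and 21.8 FPKM in WT without and with heat and 20.7 and 23.1 in CHIP-KO. Tbx15 was closest to Trmt2b (0.11), Tshz1 (0.12) and Hoxc8 (0.12), and Hoxc8, a Hox gene of the trunk, was at 0 in both WT groups and at 6.30 and 6.08 FPKM in CHIP-KO. Tbx5 was closest to Fbn2 (0.07) and Ctsc (0.07), and Tbx4 to Olfm1 (0.07), Slc6a17 (0.10) and Mab21l2 (0.11). Pitx1 was closest to Stub1 (0.35), the gene of the knockout, and next to Megf6 (0.72) and Lmcd1 (1.28). The measure is not scaled for the size of a change, so a large genotype difference dominates it. With heat in WT the mean of Stub1 went from 61.7 to 55.4 FPKM and that of Pitx1 from 40.8 to 48.1.

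Outside the 10 genes, the largest genotype difference without heat among the nearest tested protein-coding neighbours was that of Med13l, on the side of Tbx3 away from Tbx5, which was 0.71 ± 0.14 log2 units higher in CHIP-KO (limma adjusted p = 0.00134). Of 16 such neighbours, Med13l, Bcas3, Gorab and Spred2 were called higher and H2afy lower in unheated CHIP-KO. Over all tested genes 23.9% were called higher and 24.5% lower. Med13l lies 905.2 kb from Tbx3, Spred2 905.4 kb from Meis1, H2afy 237.4 kb from Pitx1 and Bcas3 6.5 kb from Tbx2. The neighbours of Prrx2 (Asb6, Tor1b) and Twist1 (Twistnb, Snx13) were not called. Pcbd2, 48.2 kb from Pitx1, stood at 20.7 FPKM in WT and 14.4 in CHIP-KO without heat (limma adjusted p = 0.0517). Wars2, 1.2 kb from Tbx15, stood at 3.62 and 3.44 FPKM (limma adjusted p = 0.572), and Brip1, 142 kb from Tbx4, at 5.76 and 5.38 (limma adjusted p = 0.261). Gorab, 71.2 kb from Prrx1, rose with heat in WT from 8.39 to 21.4 FPKM and in CHIP-KO from 10.3 to 14.2, with an interaction of -0.82 ± 0.12 (limma adjusted p = 4.81e-04).

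Several genes overlap the 10, and no source used here gives the strand setting of the counting. In the introns of Prrx1, the noncoding RNA Gm26523 on the same strand went from 0.0403 to 3.92 FPKM with heat in WT and from 0.136 to 1.85 in CHIP-KO, and the antisense gene Gm20471 from 0 to 1.64 and from 0.0213 to 0.726. Both rose with heat in both genotypes by the limma threshold, whereas Prrx1 rose in WT only, and neither shares exon bases with it. Inside Tbx15, the antisense gene Gm43120 was at 0 in unheated and 0.347 FPKM in heated WT, and at 0.799 and 2.62 in CHIP-KO. Gm37818 shares 1029 and Gm16140 shares 896 exon bases with Meis1, so its fragments could have been divided, and both stayed at or below 0.139 FPKM. The same holds for Pitx1 with Gm28760 (108 shared exon bases, at most 0.422 FPKM) and Tbx3 with Tbx3os1 (115 shared exon bases, at most 0.0164 FPKM). No more than 0.109% of the 31-base words of any of the 10 genes recurred in another of them.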

How the data were processed

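The authors deposited FPKM values for 54532 genes in 12 libraries, with gene lengths; reads were 150 bp per the labels, and the submitters' processing notes name HISAT2 as a tool. The counter, strand setting, annotation and versions are not given in the sources used. Multiplied by gene length and divided by what 1 fragment is worth in a library, 100% of the values above 0 came out whole (tolerance 0.01), and these are the fragments quoted. Of the gene identifiers, 54495 were in GENCODE M21 and 53585 had the same position there, so coordinates are on GRCm38. The 13023 genes that reached 1 FPKM in 3 or more libraries were fitted as log2(FPKM + 1) with limma 3.58.1 in R 4.3.3: 4 group means over all 12 libraries, trended variance, with two-sided tests and a Benjamini-Hochberg adjusted p below 0.05 over all tested genes as the threshold. Counting intervals are exact at 95%, and a ratio given with one is of pooled fragments scaled for depth. Other ratios between groups are of mean FPKM, with the floor in place of a mean of 0. The steps were tested on simulated data. The members and lists were chosen with earlier results of these data known. All 10 members are named, with the 3 closest profiles of each tested one, except 1 profile that is not reported here. List genes come from the up to 4 largest called changes per list, in full between the unheated genotypes and in part elsewhere; the nearest tested neighbours are named in part. Values were computed in Python 3.11.15 and drawn with matplotlib 3.10.9.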

Additional observations from a re-analysis of the deposited data

Results flagged for a closer look

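For 3 of the genes the response to heat differed between the genotypes by the test of the difference itself (limma interaction, 3 libraries per group). The interaction was -1.51 log2 units for Prrx1, -1.15 for Prrx2 and -1.03 for Twist1, each of which rose in heated WT. Tbx4 also passed this test, at -0.464, but it was at or near 0 in CHIP-KO with and without heat, so the value restates its rise in WT, and the call ended under 4 alternatives.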

How the results depend on the processing

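Of 788 values for single genes under the alternatives, 770 kept their side of the threshold, with no change of sign in a called value. Values called in neither fit were counted as kept whatever their sign. Scaling to an equal sum per library lowered the median of all genes by 0.19 for heat in WT and by 0.29 for heat in CHIP-KO. Under it 3 values that were called either as reported or after this scaling changed sign. Pitx1 with heat in WT went to -0.0017, and Tbx5 and Twist1 with heat in CHIP-KO to -0.23 and -0.28. Relative to the shifted median these were 0.21, 0.06 and 0.0042. Values called in neither fit changed sign too: Tbx15 with heat in WT (to -0.19) and the interactions of Tbx5 (to -0.21) and Pitx1 (to 0.0017). The number of genes called for heat in CHIP-KO, 1 as reported, was 5 under that scaling (all lower) and 2 with library weights (Prrx1 and Tbx15); the cause was not tested beyond the shift. Leaving out each library in turn gave 5 to 5 calls for heat in WT, 1 to 1 for heat in CHIP-KO, 7 to 7 and 6 to 6 between genotypes without and after heat, and 4 to 5 for the interaction, where Pitx1 was added without heated WT replicate 2 (-0.29, limma adjusted p = 0.0169); it was also called with median-of-ratios factors (-0.28), quantile normalization (-0.31) and library weights (-0.24). The call for Tbx4's interaction ended with a pseudocount of 0.1, quantile normalization, equal sums and voom (limma adjusted p of 0.150, 0.0515, 0.0987 and 0.355), and that for Pitx1 with heat in WT also in a fit of only the compared groups (0.0503). With the replicate number as a block, the counts were 5, 1, 7, 6 and 4, as without it; deviations of same-numbered libraries correlated between -0.12 and 0.335, so the numbers were not taken to pair samples. The interaction was not run on only the groups of a comparison, since it uses all 12 libraries.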
